A study of Mus musculus with 16 samples.

Results

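The lysosome and autophagy genes described here were 47 genes, listed by hand and found by an exact match of their symbols in the deposited expression tables, which hold 55471 lines for each day. Each of the 47 stood on 1 line in both tables, and all 47 passed the filter on low values in every comparison. By role, they encode 5 proteins of the lysosomal membrane, 8 lysosomal proteases, 9 hydrolases of glycans and lipids, 3 soluble helper proteins, 2 transcription factors, 4 parts of the proton pump, 3 cargo receptors and 8 proteins of the machinery that builds autophagosomes, and the others act in autophagy as well.

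Lysosomes are acidic compartments in which proteases, glycosidases and lipases break down material from endocytosis and from the cytoplasm, and a proton pump, the V-ATPase, keeps their lumen acidic. In autophagy, a double membrane grows around cytoplasm or organelles, cargo receptors bring in what is to be degraded, and the closed autophagosome fuses with a lysosome. TFEB and TFE3 are transcription factors that enter the nucleus when the kinase mTORC1 is off and bind a short motif, the CLEAR element, in the promoters of many lysosomal genes. In the nervous system, lysosomes are known for the storage diseases that follow the loss of single hydrolases, and in the adult brain for the large lysosomes of quiescent neural stem cells.

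The libraries came from neural stem cells (NSC) of the cortices of C57BL/6 mouse embryos (E15-16), pooled over both sexes, which were cultured with bFGF and serum and put into differentiation medium without bFGF 5 days after seeding. All cultures received a lentivirus 1 day after seeding, which expressed a scrambled shRNA (shRNA CON) or an shRNA against the lncRNA *RUS* (shRNA RUS). PolyA RNA was sequenced on day 5 and on day 7, with 4 libraries for each shRNA and day and 16 libraries in all. The paper refers to 4 experiments for its RT-qPCR of the knockdown cells and to 4 replicates for the sequencing. Nothing states that the 4 replicates of a group were separate isolations of cells. The p-values therefore measure the spread between these libraries, which may be technical.

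The authors deposited TPM, a share of transcripts that accounts for transcript length, and these values were divided by a factor for each library and are called scaled TPM below. Levels of different genes can therefore be set side by side, but the read numbers behind TPM, and so the depth of the libraries, are unknown. The factors were set within each day, unless scaling over all 16 libraries is stated. Scaled TPM of day 5 and of day 7 are otherwise not on one scale and do not show a change between the days. Libraries of the same group correlated over genes with r of 0.9692 to 0.9778 on the log2 scale, and each detected 25615 to 29126 genes. *Gm20754*, the symbol under which the tables hold *RUS*, was at 0.11 to 0.24 TPM in shRNA CON and 0 to 0.32 TPM in shRNA RUS on day 5 (mean 71.0% of control, exact permutation test, two-sided, p = 0.543), and at 0.26 to 0.72 TPM and 0 to 0.54 TPM on day 7 (43.2%, p = 0.143); the groups overlapped on both days. The library labelled shRNA RUS replicate 4 on day 5, at 0.32 TPM, lay above every control of that day, against its label. Without it the day 5 mean was 32.9% of control (exact permutation test, p = 0.0857). Without shRNA RUS replicate 2 that mean was 94.7% (exact permutation test, p = 0.943). On day 7 the mean was 25.2% without shRNA RUS replicate 1, at 0.54 TPM (exact permutation test, p = 0.0857). Without shRNA RUS replicate 3 the day 7 mean was 57.7% (exact permutation test, p = 0.286). These were the lowest and highest values of each day when any 1 library was left out. The smallest p that 4 against 4 libraries allow is 0.0286. The NSC markers *Sox2*, *Pax6* and *Nes* were above 1 TPM in every library, and so was *Gfap*, a marker of astrocytes that neural stem cells share.

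On day 5, 33 of the 47 genes were higher in shRNA RUS than in shRNA CON, 3 were lower and 11 did not pass the test (limma on log2 of scaled TPM, adjusted p under 0.05 over all genes). Of all 22581 genes tested on that day, 14.8% were called higher and 17.9% lower, and of those that averaged 1 TPM or more, 21% and 22.8%. On day 7, 34 members were higher, 8 were lower and 5 did not pass, beside 23.4% and 25.8% of 24606 genes, and 32% and 33.2% of those that averaged 1 TPM or more. The median log2 fold change of the 47 genes was 0.38 on day 5 and 0.47 on day 7, and that of all genes tested was -0.061 and -0.029. Changes were moderate in size: 9 members on day 5 and 19 on day 7 were called with a change of at least 1.5-fold, and 0 reached 2-fold on either day. The day 5 counts depended on the scaling: TPM as deposited moved the median over all genes from -0.061 to -0.21, with 1768 genes higher and 6037 lower in place of 3349 and 4034, and 27 members higher and 6 lower. Without the library labelled shRNA RUS replicate 4, 33 members were higher and 5 lower on day 5.

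**Figure D1:**
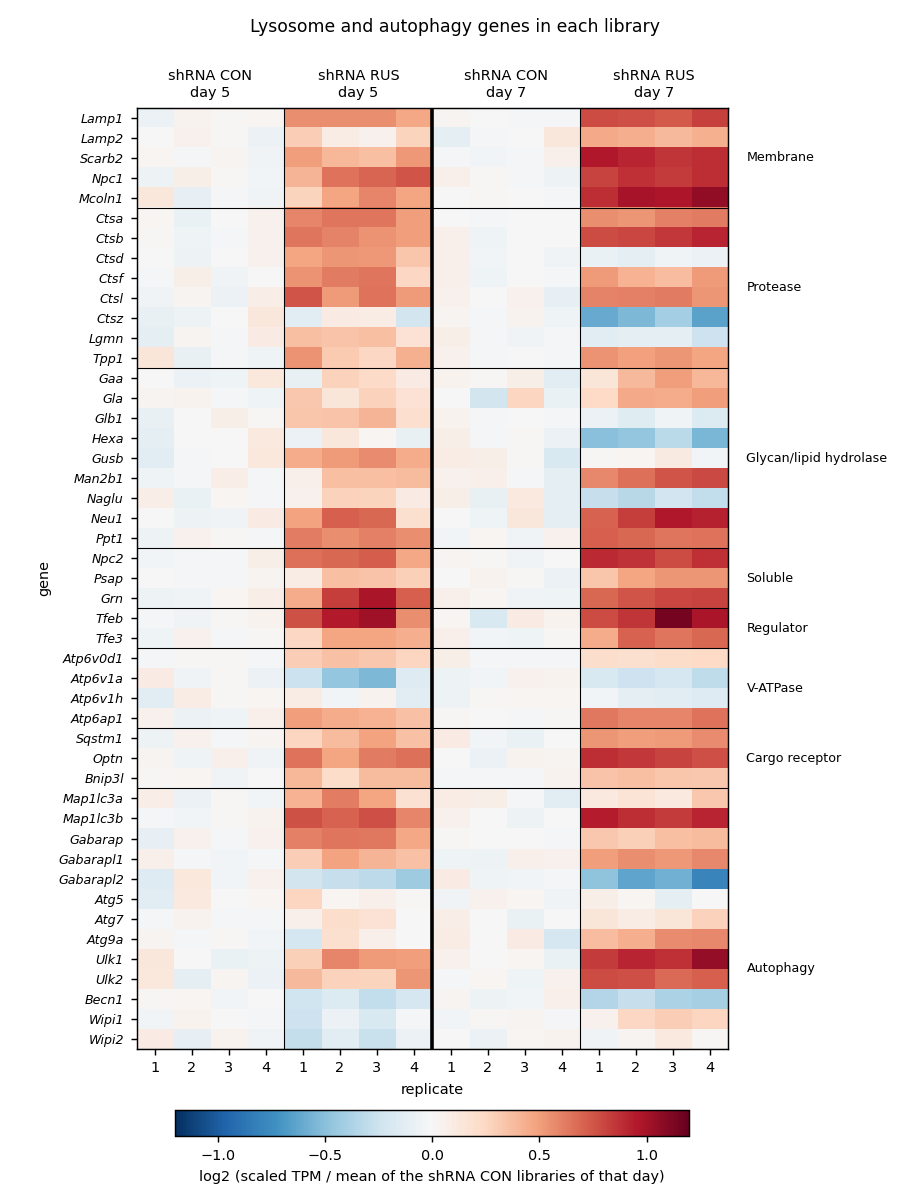
Each row is a gene, grouped by role, and each column a library (replicates 1 to 4 of each shRNA and day); the colour gives the log2 ratio of scaled TPM to the mean of the 4 shRNA CON libraries of the same day. On both days most rows are red in all 4 shRNA RUS libraries, while *Gabarapl2*, *Atp6v1a* and *Becn1* are blue on both days and *Ctsz*, *Hexa* and *Naglu* are blue on day 7.

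Across both days, 29 members were called higher on each, and 3, *Atp6v1a*, *Gabarapl2* and *Becn1*, were called lower on each. *Lgmn* was higher on day 5 and lower on day 7, and *Ctsd*, *Glb1* and *Gusb* were called higher on day 5 and not called on day 7. *Lamp2*, *Gaa*, *Atg7*, *Atg9a* and *Wipi1* passed on day 7 alone as higher, and *Ctsz*, *Hexa*, *Naglu* and *Atp6v1h* on day 7 alone as lower. *Atg5* and *Wipi2* passed on neither day. The share of all genes with each of these patterns over both days was not computed, so these counts have no background. The summed level of the 47 genes was 9186 to 9534 scaled TPM in shRNA CON and 11914 to 12786 in shRNA RUS on day 5. On day 7, with the factors of that day, it was 9775 to 10143 and 13328 to 13791. With TPM scaled over all 16 libraries, the sum was lower on day 7 in both groups. In shRNA CON it was then 10007 to 10350 on day 5 and 9086 to 9372 on day 7. In shRNA RUS it was 12955 to 13879 on day 5 and 12285 to 12663 on day 7. In bulk RNA, fewer cells of a type and less RNA per cell cannot be told apart, and this holds for each value below.

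The 2 transcription factors were both higher in shRNA RUS on both days, beside 21% of all genes that averaged 1 TPM or more on day 5 and 32% on day 7. *Tfeb* was at 12.1, 11.9, 12.4 and 12.6 scaled TPM in shRNA CON replicates 1 to 4 on day 5 and at 20.8, 23.7, 24.8 and 17.99 in shRNA RUS. On day 7 it was at 9.36, 8.13, 9.87 and 9.49 in shRNA CON and at 15.8, 16.7, 20.4 and 18.2 in shRNA RUS. No shRNA RUS library overlapped the controls of its day, and the log2 fold change was 0.82 ± 0.097 (SE, n = 4 per group, adjusted p = 2.93e-04) on day 5 and 0.94 ± 0.091 (adjusted p = 2.38e-05) on day 7, the largest increase among the members on day 5. Where 2 sets of 4 values follow each other, here and below, the first is shRNA CON and the second shRNA RUS, each from replicate 1 to 4. *Tfe3* was at 26.7, 28.8, 27.5 and 27.9 in shRNA CON and 33.03, 38.6, 38.6 and 37.6 in shRNA RUS on day 5, and at 31.7, 29.6, 29.3 and 30.7 and 41.4, 49.6, 47.3 and 48.9 on day 7. Its log2 fold change was 0.41 ± 0.063 on day 5 and 0.62 ± 0.06 on day 7, again without overlap. Levels of these mRNAs say nothing of where the proteins were in the cell.

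Because TFEB and TFE3 bind promoters, the promoter sequences of the members were read from RefSeq (build GRCm38.p6, 250 bases before to 50 after each transcription start). A promoter was found for 41 of the 47 genes, and not for *Npc1*, *Ctsb*, *Atp6v1h*, *Bnip3l*, *Map1lc3a* and *Becn1*. The word CACGTG, the core that this class of factors shares, which reads the same on both strands, was in the promoter of 15 of the 41 genes (36.6%) and of 8.09% of 27018 genes of the table. The longer palindrome TCACGTGA, which contains CACGTG and is the centre of the CLEAR element, was in 6 of the 41 (14.6%), namely *Atp6v0d1*, *Atp6v1a*, *Ctsa*, *Ctsd*, *Gla* and *Mcoln1*, and in 1.13% of all genes; in *Atp6v0d1* it spans the start itself. The stretches below are shown because they hold TCACGTGA before the start, or several copies of CACGTG; they are from GRCm38.p6, read 5′ to 3′ along the gene and the capitals mark these words.
Mcoln1, chr8:3500433-3500495, plus strand: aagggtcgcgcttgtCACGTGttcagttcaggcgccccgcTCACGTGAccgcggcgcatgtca
Lamp1, chr8:13159085-13159160, plus strand: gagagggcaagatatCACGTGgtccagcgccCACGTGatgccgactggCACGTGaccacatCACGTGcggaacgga
Gla, chrX:134601178-134601248, minus strand: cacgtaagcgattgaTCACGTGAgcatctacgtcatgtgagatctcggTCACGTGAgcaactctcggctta
Ctsd, chr7:142387904-142388077, minus strand: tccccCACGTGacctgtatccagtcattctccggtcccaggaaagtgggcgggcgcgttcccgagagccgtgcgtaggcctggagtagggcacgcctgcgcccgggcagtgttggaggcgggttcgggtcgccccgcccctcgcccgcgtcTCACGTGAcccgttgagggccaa
Ctsa, chr2:164833745-164833772, plus strand: acaatgagcaaactgTCACGTGAtgcag
Atp6v1a, chr16:44139369-44139406, minus strand: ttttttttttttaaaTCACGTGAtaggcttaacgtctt
The *Lamp1* stretch holds 4 copies of CACGTG, and those of *Mcoln1*, *Gla* and *Ctsd* hold 2 words each. A match is a description of the letters and was not tested as a binding site.

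The genes with these words went in both directions. Of all genes that averaged 1 TPM or more, 21% were called higher and 22.8% lower on day 5. On day 7 the shares were 32% and 33.2%. Of the 6 with TCACGTGA, 5 were higher in shRNA RUS on day 5 and 4 on day 7, and *Atp6v1a* was lower on both days. Of the 15 with CACGTG in any form, 10 were higher and 1 lower on day 5, and 9 higher and 3 lower on day 7, with median log2 fold changes of 0.31 and 0.22. The 26 genes with a promoter but without the word counted 19 higher and 1 lower on day 5, and 21 higher and 3 lower on day 7, with medians of 0.40 and 0.58. *Tfeb*, *Grn*, *Map1lc3b* and *Scarb2*, among the largest increases, are in the group without the word in this window.

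Of the genes of the lysosomal membrane, 4 of 5 were higher on day 5 and 5 of 5 on day 7, and 0 were lower. Of all genes that averaged 1 TPM or more, 21% were higher and 22.8% lower on day 5, and 32% and 33.2% on day 7. *Lamp1*, an abundant glycoprotein of that membrane and a standard marker of lysosomes, was at 669.7, 724, 708 and 713 scaled TPM in shRNA CON on day 5 and at 1035, 1039, 1033 and 969.8 in shRNA RUS. On day 7 it was at 922, 901, 886 and 895 and 1549, 1540.2, 1505 and 1592. The lowest shRNA RUS library lay well above the highest control on each day, and the log2 fold change was 0.53 ± 0.051 (adjusted p = 9.61e-05) and 0.78 ± 0.03 (adjusted p = 1.51e-07). Its partner *Lamp2*, which also serves chaperone-mediated autophagy, differed by 0.17 ± 0.067 on day 5, which did not pass (adjusted p = 0.0763), and was higher by 0.43 ± 0.049 on day 7.

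*Mcoln1*, the calcium release channel of lysosomes, was at 34.6, 29.4, 31.1 and 30.6 scaled TPM in shRNA CON and 37.9, 43.6, 47.3 and 43.6 in shRNA RUS on day 5. On day 7 the control libraries were at 32.7, 32.9, 32.8 and 32.3 and the shRNA RUS libraries at 60.4, 64.9, 64.1 and 68.3. This was the largest increase of a member on day 7, with a log2 fold change of 0.97 ± 0.042 (adjusted p = 2.41e-07), against 0.45 ± 0.079 on day 5. *Scarb2*, the receptor that carries glucocerebrosidase to the lysosome, was at 128, 125, 129 and 122 and 178, 166, 162 and 181 on day 5, and at 132, 131, 133 and 140.2 and 261, 252, 243 and 248 on day 7. The separation of its groups widened from a log2 fold change of 0.44 ± 0.051 to 0.90 ± 0.035. Day 7 minus day 5, the log2 effect of the knockdown differed by 0.51 ± 0.09 for *Mcoln1* (adjusted p = 6.60e-04) and 0.45 ± 0.061 for *Scarb2* (adjusted p = 9.03e-05), in the fit over all 16 libraries.

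The pair that moves cholesterol out of the lysosome, the membrane protein *Npc1* and the soluble carrier *Npc2*, was higher on both days. *Npc1* was at 48.6, 53.1, 51.02 and 49.4 scaled TPM in shRNA CON and 66.9, 79.4, 82.1 and 85.3 in shRNA RUS on day 5, and at 52.1, 50.3, 49.4 and 47.9 and 87.5, 91.6, 89.4 and 92.4 on day 7. *Npc2* was at 109.8, 109.8, 111 and 118 and 178, 181, 186 and 155 on day 5, and at 103, 101, 96.9 and 99.6 and 186, 183, 172 and 183 on day 7. All shRNA RUS libraries lay above the controls, with log2 fold changes for *Npc1* and *Npc2* of 0.63 ± 0.077 and 0.64 ± 0.064 on day 5 and 0.85 ± 0.037 and 0.85 ± 0.035 on day 7. *Grn*, the precursor of the granulins, was at 149.9, 151, 158 and 164 in shRNA CON and at 212, 277, 308 and 256 in shRNA RUS on day 5, and at 202, 197, 188 and 187 and 312, 327, 338 and 339 on day 7. Its shRNA RUS libraries spread more on day 5 than on day 7, and the log2 fold change was 0.74 ± 0.10 and 0.76 ± 0.039. *Psap*, whose product is cut into the saposins that help break down sphingolipids, was among the most abundant members, at 1029 to 1069 scaled TPM in the day 5 controls, and was higher by 0.27 ± 0.068 on day 5 (adjusted p = 0.0139) and 0.47 ± 0.049 on day 7. The day 5 value of *Psap* was -0.024 with quantile normalization (adjusted p = 0.866) and 0.11 with TPM as deposited (adjusted p = 0.267).

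**Figure D2:**
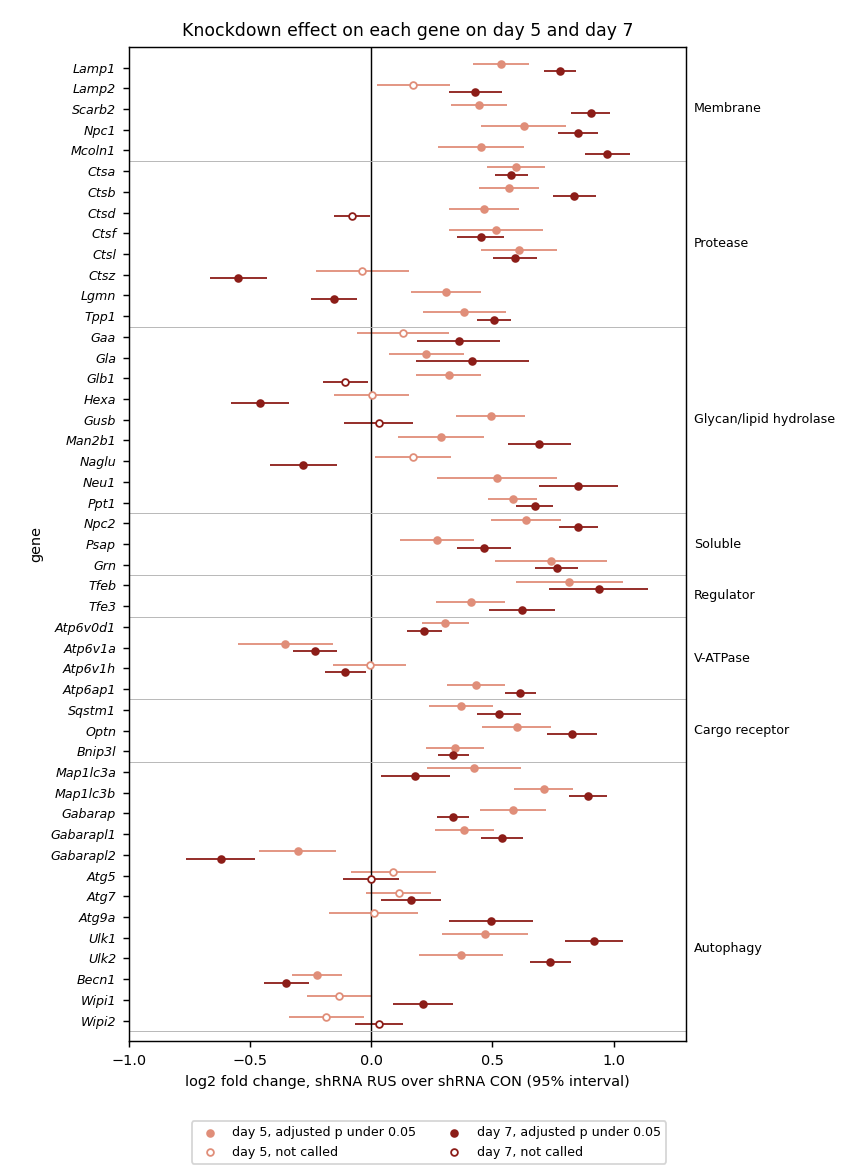
Log2 fold change of shRNA RUS over shRNA CON for each gene, with its 95% interval, on day 5 (light) and day 7 (dark); filled points passed an adjusted p of 0.05 and open points did not. Values run from -0.62 for *Gabarapl2* on day 7 to 0.97 for *Mcoln1* on day 7, and in *Ctsd*, *Ctsz*, *Lgmn*, *Glb1*, *Hexa*, *Gusb* and *Naglu* the dark point lies to the left of the light one.

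Of the 8 proteases, 7 were higher on day 5 and 1, *Ctsz*, did not pass. On day 7, 5 were higher (*Ctsa*, *Ctsb*, *Ctsf*, *Ctsl* and *Tpp1*), 2 were lower (*Ctsz* and *Lgmn*) and *Ctsd* did not pass. The share called lower on day 7, 25%, stands beside 33.2% of all genes that averaged 1 TPM or more. The shares called higher, 87.5% and 62.5%, stand beside 21% and 32%, and none of these differences was tested. *Ctsb*, a cysteine protease at 1137 to 1217 scaled TPM in the day 5 controls, had log2 fold changes of 0.57 ± 0.055 and 0.84 ± 0.039. *Ctsa*, which protects the sialidase and beta-galactosidase in a complex, had 0.60 ± 0.053 and 0.58 ± 0.03, and *Ctsl*, another cysteine protease, 0.61 ± 0.069 and 0.59 ± 0.04. The values of *Ctsf* were 0.51 ± 0.086 and 0.45 ± 0.043. *Tpp1*, the tripeptidyl peptidase lost in a childhood form of ceroid lipofuscinosis, was at 155, 132, 138 and 135 and 203, 174, 166 and 188 on day 5 and at 209, 197, 200.2 and 198 and 292, 282, 291 and 279 on day 7, with no overlap on either day; its day 5 call was lost with TPM as deposited (adjusted p = 0.0859) and quantile normalization (adjusted p = 0.059).

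*Ctsd*, the main aspartic protease of lysosomes, was the most abundant member on day 5. It was at 1503, 1446, 1505 and 1564 scaled TPM in shRNA CON and at 2092, 2174, 2157 and 1890.2 in shRNA RUS, which gives 0.46 ± 0.064 on the log2 scale (adjusted p = 6.21e-04). On day 7 it was at 1501, 1412, 1449 and 1403 and 1361, 1329.6, 1399.8 and 1369.7, with a log2 fold change of -0.078 ± 0.033 that did not pass (adjusted p = 0.0794), although all shRNA RUS libraries were below the controls. The knockdown effect on *Ctsd* thus differed between the days by -0.55 ± 0.065 (adjusted p = 2.43e-05), the largest negative difference among the members. In the GENCODE vM21 annotation of GRCm38, 34.4% of the exon bases of *Ctsd* are also in *Gm49369*, a gene on the same strand, and *Gm49369* was at 162 to 298 scaled TPM in shRNA CON and 159 to 209.6 in shRNA RUS on day 5. The sum of both genes was 1747 ± 74.5 in shRNA CON and 2264 ± 110.4 in shRNA RUS (SD, n = 4) on day 5, and 1683 ± 72.4 and 1597 ± 71.4 on day 7.

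*Ctsz*, a carboxypeptidase, and *Lgmn*, the asparaginyl endopeptidase, were the proteases called lower on day 7. *Ctsz* was at 129.6, 132, 139 and 152 scaled TPM in shRNA CON and 126, 148, 147 and 119 in shRNA RUS on day 5, where the groups overlapped. On day 7 it was at 128, 124, 129 and 121 and 82.5, 86.5, 94.5 and 80.4, a log2 fold change of -0.55 ± 0.052 (adjusted p = 2.08e-05). *Lgmn* was at 132, 146, 140.1 and 152 and 184, 181, 183 and 161 on day 5, and at 156, 147, 144 and 146 and 136, 137, 136 and 124 on day 7. All shRNA RUS libraries of *Lgmn* were thus above the controls on day 5 and below them on day 7, with log2 fold changes of 0.31 ± 0.064 (adjusted p = 0.00537) and -0.15 ± 0.042 (adjusted p = 0.0131).

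Among the 9 hydrolases of glycans and lipids, 6 were higher and 0 lower on day 5, and 5 were higher and 2 lower on day 7. The 2 lower are 22.2%, beside 33.2% of all genes that averaged 1 TPM or more. The shares higher were 66.7% and 55.6% beside 21% and 32%, and none of these differences was tested. *Ppt1*, which removes fatty acids from proteins, was higher by 0.58 ± 0.045 and 0.67 ± 0.034. *Neu1*, the lysosomal sialidase, was at 17.7, 16.9, 17.1 and 18.8 scaled TPM in shRNA CON and 24.7, 29.00, 28.4 and 20.2 in shRNA RUS on day 5, and at 15.2, 14.6, 16.6 and 14.1 and 24.7, 26.9, 29.5 and 28.8 on day 7. *Man2b1*, the alpha-mannosidase, was at 29.97, 30.8, 32.9 and 30.9 and 32.4, 39.95, 40.03 and 40.5 on day 5, and at 40.7, 40.9, 38.7 and 36.4 and 58.3, 61.8, 65.9 and 67.7 on day 7. On day 5 the first shRNA RUS library of *Man2b1* lay within the controls, and on day 7 its groups were apart, with log2 fold changes of 0.29 ± 0.078 (adjusted p = 0.02) and 0.69 ± 0.058 (adjusted p = 9.31e-06). *Gla*, the alpha-galactosidase of Fabry disease, differed by 0.23 ± 0.068 on day 5 (adjusted p = 0.0309) and 0.42 ± 0.10 on day 7, where its groups overlapped. The day 5 calls of these last 2 genes were narrow: *Gla* lost its call without any 1 of 6 of the 8 libraries, with adjusted p of 0.0547 to 0.082, and *Man2b1* without any 1 of 4, with adjusted p of 0.05 to 0.0561. With TPM as deposited both calls were lost, at 0.071 for *Gla* (adjusted p = 0.516) and 0.13 for *Man2b1* (adjusted p = 0.311).

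*Gaa*, the acid alpha-glucosidase that degrades glycogen, was at 84.1, 80.3, 81.5 and 91.99 scaled TPM in shRNA CON and 79.4, 102, 99.3 and 90.5 in shRNA RUS on day 5, and at 58.1, 57.00, 59.1 and 51.5 and 62.5, 73.9, 79.7 and 74.5 on day 7. Its groups overlapped on day 5 and were apart on day 7, with a log2 fold change of 0.36 ± 0.076 (adjusted p = 0.00312). *Glb1*, the beta-galactosidase, was at 47.2, 50.5, 52.8 and 50.8 and 63.2, 63.8, 66.7 and 57.7 on day 5, and at 32.8, 31.7, 31.8 and 31.6 and 30.4, 28.9, 30.9 and 28.4 on day 7. *Gusb*, the beta-glucuronidase, was at 37.4, 40.3, 40.7 and 44.6 and 55.3, 58.1, 60.2 and 55.5 on day 5, and at 38.01, 37.5, 36.1 and 31.6 and 36.1, 36.3, 38.6 and 35.04 on day 7. Both were higher on day 5, by 0.32 ± 0.06 and 0.49 ± 0.063, and on day 7 their values of -0.11 ± 0.041 and 0.031 ± 0.063 did not pass (adjusted p = 0.0556 and 0.719).

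*Hexa*, the alpha subunit of hexosaminidase that is lost in Tay-Sachs disease, was at 135, 147, 146 and 159 scaled TPM in shRNA CON and 139, 162, 149 and 138 in shRNA RUS on day 5, which overlapped. On day 7 it was at 129, 122, 124 and 117 and 86.6, 89.3, 98.2 and 83.9, a log2 fold change of -0.46 ± 0.053 (adjusted p = 7.51e-05). *Naglu*, the N-acetylglucosaminidase that acts on heparan sulfate, was at 23.3, 20.8, 22.4 and 21.7 and 22.9, 26.7, 26.5 and 23.6 on day 5, and at 20.1, 18.03, 20.8 and 17.7 and 15.8, 15.2, 16.3 and 15.6 on day 7. Its day 5 value of 0.17 ± 0.07 did not pass (adjusted p = 0.0881), and on day 7 it was lower by 0.28 ± 0.062 on the log2 scale (adjusted p = 0.00422).

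Microglia, the macrophages of the brain, are rich in lysosomal proteases, and their marker genes moved on day 7. Of 13 markers, 2 were higher and 2 lower in shRNA RUS on day 5, and 13 of 13 were lower on day 7. The marker counts here are to be read against all genes that averaged 1 TPM or more. Of those, 21% were higher and 22.8% lower on day 5, and 32% and 33.2% on day 7. The day 5 shares of the microglia markers, 15.4% each way, are near these. Their summed level was 209 to 226 scaled TPM in shRNA CON and 194 to 269 in shRNA RUS on day 5, and 594 to 661 and 292 to 357 on day 7. None of the 13 markers was at 0 in any library. *Csf1r*, the receptor for a microglial growth factor, had log2 values of -0.54 ± 0.078 (day 5) and -1.29 ± 0.10 (day 7), and *Fcer1g*, an Fc receptor subunit, 0.02 ± 0.10 and -1.34 ± 0.076. The part of the microglia in the lower *Ctsz*, *Hexa*, *Lgmn* and *Naglu* was not tested. The astrocyte markers summed to 4944 to 5167 scaled TPM in shRNA CON and 6372 to 6623 in shRNA RUS on day 5, and to 3565 to 3693 and 4243 to 4471 on day 7. Of these 8 markers, 2 were called higher and 1 lower on day 5, and 3 higher and 2 lower on day 7, shares near those of all genes. The neural stem markers summed to 10711 to 12761 and 15593 to 18819 on day 5, and to 6582 to 7000.5 and 7173 to 7870.2 on day 7, with 4 of 8 higher and 3 lower on day 5 and 4 higher and 2 lower on day 7. Of 8 oligodendrocyte markers, 1 was higher and 4 lower on day 5, and 1 higher and 5 lower on day 7, with sums of 211 to 237 and 302 to 365 on day 5 and of 306 to 343 and 302 to 359.8 on day 7. A sum follows its most abundant genes and can differ from the counts. On day 5 the median log2 fold change of these markers was -0.67 although their sum was higher, and *Cnp* alone was called higher. Of 8 neuron markers, 1 was higher and 2 lower on day 5, and 4 higher and 2 lower on day 7, with sums of 473 to 542 and 487 to 543 on day 5 and of 809.9 to 894 and 779 to 919.7 on day 7. Of 8 vascular and fibroblast markers, 5 were tested, and 1 of them was higher on day 5 and 2 on day 7. The sum of all 8 was 25.2 to 29.001 and 23.7 to 33.7 on day 5. On day 7 it was 15.2 to 17.1 and 32.3 to 37.04. The part of these cells in the members' values was not tested either.

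**Figure D3:**
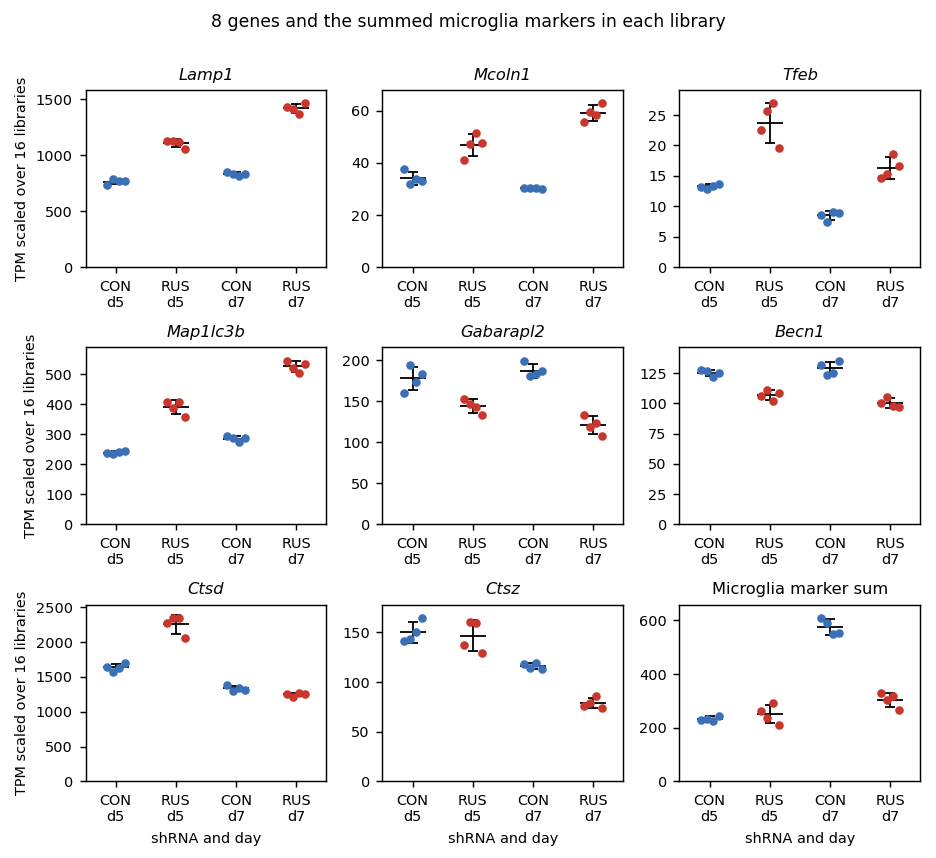
TPM scaled over all 16 libraries, so that levels can be set across the days, for 8 genes and for the sum of 13 microglia markers; points are libraries (blue shRNA CON, red shRNA RUS) and the black bars give the mean and SD of 4. *Lamp1*, *Mcoln1*, *Tfeb* and *Map1lc3b* have the shRNA RUS points above the controls on both days, *Gabarapl2* and *Becn1* below them, and *Ctsz* and the microglia sum are below the controls on day 7 only.

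Genes of the V-ATPase went in both directions. *Atp6v1a*, the catalytic subunit that hydrolyses ATP, was at 99.7, 90.5, 94.2 and 88.9 scaled TPM in shRNA CON and 77.9, 67.5, 64.1 and 83.8 in shRNA RUS on day 5. On day 7 it was at 165, 168, 178 and 177 and 152, 145, 149.8 and 139. It was thus lower in all shRNA RUS libraries, by 0.35 ± 0.087 (adjusted p = 0.0128) and 0.23 ± 0.04 (adjusted p = 0.00103) on the log2 scale. *Atp6ap1*, an accessory subunit, was higher by 0.43 ± 0.053 and 0.62 ± 0.029, and *Atp6v0d1*, a subunit of the membrane part, by 0.31 ± 0.043 and 0.22 ± 0.032. *Atp6v1h*, a regulatory subunit of the cytosolic part, differed by -0.0067 ± 0.066 on day 5 and -0.11 ± 0.037 on day 7, and its day 7 call (adjusted p = 0.0375) was lost without any 1 of 6 of the 8 libraries, with adjusted p of 0.0777 to 0.0925.

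The 3 cargo receptors were higher on both days, beside 21% of all genes that averaged 1 TPM or more on day 5 and 32% on day 7. *Sqstm1*, p62, which binds ubiquitinated cargo, was at 310 to 337 scaled TPM in the controls and 388 to 453 in shRNA RUS on day 5, and at 319.8 to 363 and 477 to 499 on day 7. *Optn*, which acts in the removal of damaged mitochondria and bacteria, had log2 fold changes of 0.60 ± 0.063 and 0.83 ± 0.046, and *Bnip3l*, a receptor on mitochondria, 0.35 ± 0.053 and 0.34 ± 0.028. For *Sqstm1* the values were 0.37 ± 0.059 and 0.53 ± 0.041. On day 5 the call of *Sqstm1* was lost with quantile normalization (adjusted p = 0.0542) and that of *Bnip3l* with TPM as deposited (adjusted p = 0.0503). Of the 75-base words in the transcripts of *Bnip3l*, 18.74% also occur in its pseudogene *Bnip3l-ps*, whose means were 7.03 and 10.1 scaled TPM in shRNA CON and shRNA RUS on day 5, and 9.06 and 10.8 on day 7.

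The machinery that builds autophagosomes counted 2 of 8 genes higher, 1 lower and 5 not called on day 5, and on day 7 it counted 5 higher, 1 lower and 2 not called. The day 5 shares, 25% and 12.5%, are near the 21% and 22.8% of all genes that averaged 1 TPM or more. The day 7 shares, 62.5% and 12.5%, stand beside 32% and 33.2%. *Ulk1*, the kinase that starts autophagy, was at 23.7, 21.5, 20.4 and 20.7 scaled TPM in shRNA CON and 26.3, 32.3, 30.8 and 30.5 in shRNA RUS on day 5, and at 32.9, 32.1, 32.4 and 30.1 and 56.98, 59.9, 58.7 and 66.1 on day 7. The log2 fold change was 0.47 ± 0.079 (adjusted p = 0.00179) and 0.92 ± 0.053 (adjusted p = 1.02e-06), and its relative *Ulk2* had 0.37 ± 0.077, a call lost with TPM as deposited (adjusted p = 0.147), and 0.74 ± 0.038. *Becn1*, the part of the lipid kinase complex that acts after ULK1, was at 117, 117, 113 and 115 and 97.8, 103, 93.96 and 100.2 on day 5, and at 142, 134, 136 and 145 and 109, 115, 107 and 106 on day 7. It was lower by 0.22 ± 0.046 (adjusted p = 0.00533) and 0.35 ± 0.041 (adjusted p = 7.99e-05) on the log2 scale. Exons of *Cntd1* on the opposite strand cover 43.9% of the exon bases of *Becn1*, and *Cntd1* was at 2.05 ± 0.26 and 1.06 ± 0.32 scaled TPM in shRNA CON and shRNA RUS on day 5, and 3.51 ± 0.34 and 1.62 ± 0.098 on day 7 (SD, n = 4); whether the counting used strand is not given in the sources used here.

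*Atg9a*, the lipid scramblase of the growing membrane, was at 25.3, 24.5, 25.05 and 24.2 scaled TPM in shRNA CON and 21.4, 28.3, 25.8 and 24.7 in shRNA RUS on day 5, which overlapped, and at 27.1, 25.3, 27.2 and 22.1 and 32.9, 34.5, 37.6 and 38.02 on day 7. The day 7 log2 fold change was 0.49 ± 0.076 (adjusted p = 4.95e-04). The lipid-binding scaffold *Wipi1* passed on day 7 with 0.21 ± 0.055, after -0.13 ± 0.059 on day 5 (adjusted p = 0.118). Its relative *Wipi2* was at 41.3, 35.97, 39.6 and 37.4 and 31.7, 35.1, 32.1 and 36.7 on day 5, and at 55.6, 52.9, 56.6 and 57.2 and 54.1, 56.97, 60.2 and 56.2 on day 7, with values of -0.19 ± 0.069 and 0.033 ± 0.043 that did not pass. Without the library labelled shRNA RUS replicate 4 on day 5, both would be called lower on that day, with -0.17 for *Wipi1* (adjusted p = 0.0414) and -0.22 for *Wipi2* (adjusted p = 0.0274), and 5 members in place of 3. The conjugation enzymes *Atg5* and *Atg7* had small values: the 95% interval of *Atg5* was -0.084 to 0.27 on day 5 and -0.12 to 0.11 on day 7, and *Atg7* was called on day 7 with 0.16 ± 0.054 (adjusted p = 0.032), a call lost without any 1 of 5 libraries, with adjusted p of 0.0536 to 0.092.

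The knockdown effect itself was compared between the days in a fit over the 16 libraries. It was higher on day 7 for 13 members and lower for 9, beside 15.2% and 14.6% of 23789 genes. Of those that averaged 1 TPM or more, 20.4% and 20.1% were called, so that the members' 19.1% lower is near the background. After *Mcoln1*, the largest positive differences were those of *Atg9a* (0.47 ± 0.11, adjusted p = 0.00533), *Scarb2*, *Ulk1* (0.44 ± 0.095, adjusted p = 0.00295) and *Man2b1* (0.39 ± 0.097, adjusted p = 0.00659). The negative differences were led by *Ctsd*, *Ctsz* (-0.52 ± 0.10, adjusted p = 0.00122), *Lgmn* (-0.48 ± 0.075, adjusted p = 2.78e-04), *Gusb* (-0.47 ± 0.086, adjusted p = 8.22e-04) and *Hexa* (-0.47 ± 0.085, adjusted p = 7.46e-04). The microglia markers differed in the same fit, with 12 of 13 called lower and a median difference of -1.01. Of the neuron markers 4 of 8 were higher and 1 lower (median 0.51), of the neural stem markers 2 were higher and 3 lower, of the astrocyte markers 2 and 2, of the oligodendrocyte markers 2 and 1, and of 5 vascular and fibroblast markers 1 was higher. The part of these cells in the members' differences was not tested. The count of positive differences depends on how libraries were scaled: it was 25 with TPM as deposited, which moved the median over all genes from 0.038 to 0.19 and gave 5700 genes higher and 2053 lower, and 27 with quantile normalization, and the count of negative ones was 7 and 8. The calls of *Lamp2*, *Npc2*, *Optn* and *Atp6ap1* were lost without any 1 of 12, 12, 10 and 8 libraries, and that of *Gabarapl2* with TPM as deposited (-0.16, adjusted p = 0.133).

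In the control cultures alone, day 7 was compared with day 5, the interval in which bFGF was withdrawn. Of the 47 genes, 25 were lower and 7 higher on day 7, beside 21.6% and 26.9% of 23789 genes. Of the 15899 that averaged 1 TPM or more, 28.9% were lower and 30.8% higher. Cell type markers moved in the same comparison: 12 of 13 microglia markers were higher on day 7, with a sum of 226 to 246 on day 5 and 551 to 610.4 on day 7 (TPM scaled over all 16 libraries), 5 of 8 neuron markers were higher and 1 lower, 6 of 8 astrocyte markers were lower and 1 higher, 4 of 8 neural stem markers were lower and 1 higher, 5 of 8 oligodendrocyte markers were higher and 2 lower, and 3 of 5 vascular and fibroblast markers were lower. Their part in the members' values was not tested. On TPM scaled over all 16 libraries, *Glb1* was at 51.5, 54.9, 57.2 and 55.1 on day 5 and 30.3, 29.3, 29.3 and 29.4 on day 7, *Gaa* was at 91.9, 87.3, 88.4 and 99.9 and 53.6, 52.7, 54.6 and 48.01, and *Tfeb* was at 13.2, 12.9, 13.4 and 13.7 and 8.65, 7.52, 9.12 and 8.84. These decreases of 0.88 ± 0.048, 0.81 ± 0.082 and 0.64 ± 0.097 on the log2 scale were the largest among the members, and no library of one day overlapped the other. *Hexa* followed, from 148, 159, 159 and 172 on day 5 to 119, 112, 114 and 109 on day 7 (-0.49 ± 0.06), and *Neu1*, from 19.4, 18.4, 18.5 and 20.5 to 14.1, 13.5, 15.4 and 13.1 (-0.45 ± 0.096). *Tfeb* and *Neu1* were thus lower on day 7 in the controls and higher in shRNA RUS on both days.

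The increases in the controls were led by *Atp6v1a*, at 109, 98.3, 102 and 96.5 on day 5 and 152, 155, 164 and 165 on day 7, a log2 fold change of 0.65 ± 0.072 (adjusted p = 1.88e-06). *Ulk1* was at 25.9, 23.3, 22.1 and 22.5 on day 5 and 30.4, 29.6, 29.9 and 28.1 on day 7 (0.33 ± 0.067), and *Map1lc3b* at 236, 234, 240.0 and 245 and 296, 286, 273 and 288 (0.26 ± 0.044). *Wipi2* was at 45.1, 39.1, 42.9 and 40.6 on day 5 and 51.4, 48.9, 52.3 and 53.3 on day 7 (0.30 ± 0.056), and *Tpp1* at 169, 143, 149 and 147 and 193, 182, 185 and 185 (0.29 ± 0.06). In each of these genes all day 7 controls were above all day 5 controls, on TPM scaled over all 16 libraries. The comparison shares its control libraries with the others, and since each day is a separate deposited table, the day and the table cannot be told apart. The split also moved with the scaling: TPM as deposited, with 8573 genes higher and 3434 lower in place of 6394 and 5133, gave 13 members higher and 13 lower, and quantile normalization 14 higher and 17 lower, with values turning from negative to positive for *Scarb2* and *Gabarap* with TPM as deposited, and for *Ctsd*, *Ctsl*, *Sqstm1*, *Gabarap* and *Gabarapl1* with quantile normalization. Under the latter *Gabarap* was called higher (0.19, adjusted p = 1.90e-04), and so was *Gabarapl1* (0.12, adjusted p = 0.0498). The calls of *Gabarap* and *Map1lc3a* were each lost without any 1 of 11 of the 16 libraries, and that of *Mcoln1* without any 1 of 6.

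Other genes of these pathways were counted from lists of 154 genes outside the 47, of which 151 were tested on day 5 and 152 on day 7. On day 5, 66 were higher and 24 lower in shRNA RUS, and on day 7, 84 were higher and 36 lower, with medians of 0.17 and 0.21. The counts of each list below are to be read against the genes that averaged 1 TPM or more, of which 21% were higher and 22.8% lower on day 5, and 32% and 33.2% on day 7. Further proteins of the lysosomal membrane counted 13 of 20 higher and 2 lower on day 5, and 15 higher and 2 lower on day 7. The higher ones include *Tpcn1*, a cation channel (1.56 ± 0.089 on day 7), and *Sidt2*, a transporter of nucleic acids (0.54 ± 0.069 and 1.28 ± 0.065). Genes for nutrient sensing by mTORC1 and for its control of TFEB counted 6 of 21 higher and 0 lower on day 5, and 14 higher and 3 lower on day 7. They were led on both days by *Flcn*, folliculin, which acts in the control of TFEB and TFE3 by mTORC1, with 0.83 ± 0.064 and 1.23 ± 0.05, and on day 7 also by the small GTPase *Rragd* (0.77 ± 0.042). The decreases in this list on day 7 were led by *Lamtor2* (-0.30 ± 0.044) and *Lamtor5* (-0.26 ± 0.049), parts of the scaffold that holds mTORC1 at the lysosome.

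**Figure D4:**
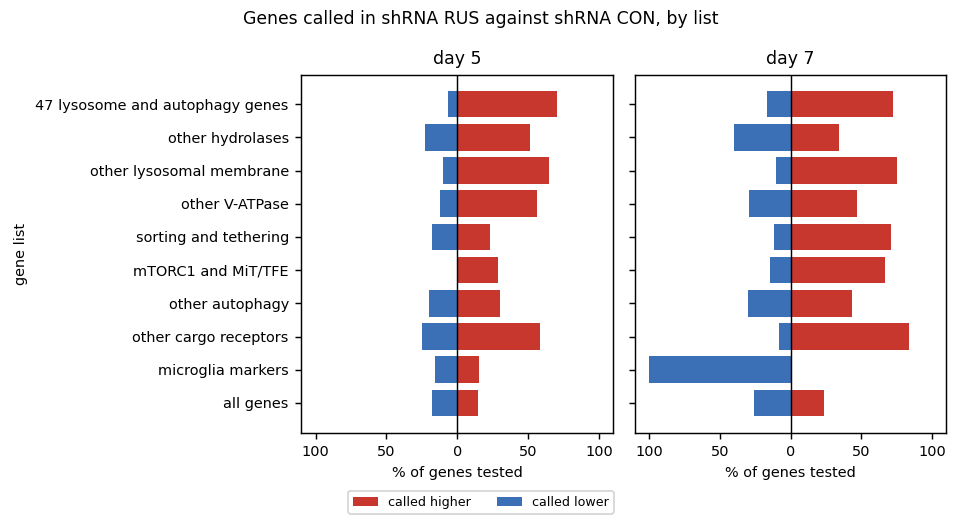
Percent of the genes tested that were called higher (red, to the right) and lower (blue, to the left) in shRNA RUS on day 5 and day 7, for the 47 genes, 7 lists of other pathway genes, 13 microglia markers and all genes. The 47 genes stand at 70.2% higher and 6.38% lower on day 5 and at 72.3% and 17% on day 7, and the microglia markers at 100% lower on day 7.

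The other hydrolases counted 18 of 35 higher and 8 lower on day 5, and 12 higher and 14 lower on day 7, where the shares of 34.3% and 40% are near those of all genes. *Asah1*, the acid ceramidase, was higher by 0.62 ± 0.082 and 1.16 ± 0.077, and *Galc*, the galactosylceramidase of Krabbe disease, was lower by 0.90 ± 0.096 on day 5. The other V-ATPase genes counted 9 of 16 higher and 2 lower on day 5, and 8 of 17 higher and 5 lower on day 7. Among those of at least 1 TPM, the largest increase on both days was that of *Atp6v0b* (0.61 ± 0.077 and 0.70 ± 0.04) and the largest decrease that of *Atp6v1g1* (-0.70 ± 0.067 and -1.06 ± 0.049). Sorting and tethering genes, which deliver hydrolases and dock membranes, had 4 of 17 higher and 3 lower on day 5, shares of 23.5% and 17.6% near those of all genes, and 12 higher and 2 lower on day 7. In that list *Nagpa*, the enzyme that uncovers the mannose 6-phosphate tag, was higher by 1.23 ± 0.11 and 1.56 ± 0.078, and the receptor for that tag, *M6pr*, was lower by 0.70 ± 0.057 and 0.77 ± 0.031 on the log2 scale, whereas the second receptor, *Igf2r*, was higher by 0.71 ± 0.043 on day 7.

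Further autophagy genes counted 9 of 30 higher and 6 lower on day 5, and 13 higher and 9 lower on day 7, with the lower shares of 20% and 30% near those of all genes. *Wdr45*, a relative of the WIPI genes, was higher by 0.73 ± 0.054 and 0.64 ± 0.059, the tether *Plekhm1* by 0.87 ± 0.072 on day 7, and the ULK1 complex subunit *Atg101* was lower by 0.68 ± 0.05 on day 7. Of the other cargo receptors and mitophagy genes, 7 of 12 were higher and 3 lower on day 5, and 10 higher and 1 lower on day 7. *Pink1*, the kinase that marks damaged mitochondria, was higher by 0.81 ± 0.088 and 0.76 ± 0.04, and *Fundc1*, a receptor on the outer mitochondrial membrane, was lower by 0.42 ± 0.072 and 0.74 ± 0.036 on the log2 scale.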

How the data were processed

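PolyA RNA from 16 libraries (shRNA CON and shRNA RUS, day 5 and day 7, 4 each, grouped as labelled) was sequenced by the authors on an Illumina NextSeq, aligned with STAR to mm10 with Ensembl transcripts and quantified with RSEM. The authors deposited TPM per library and, from DESeq2, a base mean (a normalized signal), log2 fold changes, a test statistic (a score) and p-values; these deposited columns were not used. Depth is unknown, so no counting interval is given.

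TPM were divided by median-ratio factors (genes of at least 1 TPM in all libraries of a fit), 0.1 was added, and, where the mean reached 0.1 TPM, log2 values were tested with limma 3.58.1 (trend, two-sided, Benjamini-Hochberg over all genes, threshold 0.05; R 4.3.3) per day, or over 16 libraries for the day and the difference of effects. Fold changes are on the log2(scaled TPM + 0.1) scale. On day 5, 3 lines named no gene, and 106 lines were left out of the joint fit.

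Members and lists were chosen with earlier results of these data known. All 47 members enter the counts and figures, and of each other list up to 2 called genes with the largest increase and 2 with the largest decrease per comparison (mean of at least 1 TPM); *Sox2*, *Pax6*, *Nes* and *Gfap* were added to check the label. Some items that these rules would name are not reported here. Replicate numbers were not treated as pairs. Promoters are from RefSeq (GRCm38.p6), exon overlaps from GENCODE vM21; files were read with Python 3.11.15, pandas 2.3.3 and matplotlib 3.10.9.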

Additional observations from a re-analysis of the deposited data

Results flagged for a closer look

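The knockdown effect differed between day 5 and day 7 by a test of the difference itself in 22 of the 47 genes (limma, log2 fold change on day 7 minus that on day 5, adjusted p under 0.05). Of the members, 27.7% were called more positive and 19.1% more negative on day 7, beside 20.4% and 20.1% of all genes that averaged 1 TPM or more, so that the negative share is near the background. The effect was more positive on day 7 by 0.51 for *Mcoln1*, 0.47 for *Atg9a*, 0.45 for *Scarb2*, 0.44 for *Ulk1*, 0.39 for *Man2b1*, 0.36 for *Ulk2*, 0.33 for *Wipi1*, 0.26 for *Ctsb*, 0.24 for *Lamp2*, 0.23 for *Lamp1*, 0.21 for *Optn*, 0.20 for *Npc2* and 0.17 for *Atp6ap1*. It was more negative on day 7, with -0.55 for *Ctsd*, -0.52 for *Ctsz*, -0.48 for *Lgmn*, -0.47 for *Gusb*, -0.47 for *Hexa*, -0.46 for *Naglu*, -0.44 for *Glb1*, -0.33 for *Gabarapl2* and -0.26 for *Gabarap*. The calls of *Lamp2*, *Npc2*, *Optn* and *Atp6ap1* were lost when any 1 of 12, 12, 10 and 8 of the 16 libraries was left out. With TPM as deposited, *Gabarapl2* (-0.16, adjusted p = 0.133) and *Gabarap* (-0.089, adjusted p = 0.141) lost theirs, and with quantile normalization the value of *Gabarap* turned to 0.054 (adjusted p = 0.426).

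Single libraries stood apart from the other 3 of their group in 10 of 188 combinations of a gene and a group, by the ratio of the gap to the range in a group of 4; chance gives about 1 in 20 such groups. On day 5, the library labelled shRNA RUS replicate 4 was lowest for *Lamp1* (969.8 scaled TPM beside 1033 to 1039) and for *Lgmn* (161 beside 181 to 184). In the same group, replicate 1 was lowest for *Man2b1* (32.4 beside 40.0 to 40.5) and replicate 2 for *Bnip3l* (195 beside 218 to 219.5). In shRNA CON on day 5, replicate 4 was highest for *Npc2* (118 beside 109.8 to 111) and replicate 1 for *Gabarapl1* (146 beside 137 to 138). On day 7, shRNA CON replicate 1 was highest for *Atp6v0d1* (167 beside 156.7 to 156.9) and lowest for *Atp6v1h* (105 beside 111 to 112). Replicate 4 of shRNA CON was highest for *Scarb2* (140.2 beside 131 to 133), and replicate 4 of shRNA RUS was lowest for *Lgmn* (124 beside 136 to 137).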

How the results depend on the processing

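Of the 36 members called on day 5, 29 kept direction and call under all 16 alternatives, and of the 42 called on day 7, 39 did; the others were *Tpp1*, *Gla*, *Man2b1*, *Psap*, *Sqstm1*, *Bnip3l* and *Ulk2* on day 5 and *Atp6v1h*, *Map1lc3a* and *Atg7* on day 7. For day 7 against day 5 in shRNA CON, 18 of 32 kept theirs under all 24 alternatives, with 9 lost and 5 reversed, and for the difference of effects 16 of 22 did. With TPM as deposited, 1768 of all genes were called higher on day 5, and 6 members lower; quantile normalization gave 5 members lower, and leaving out single libraries 3 to 5. The median over all genes moved to -0.21 on day 5 with TPM as deposited. The replicate number as a block, which the data do not bear out as a pairing (correlations of deviations between -0.10 and 0.033), gave 2231 genes higher on day 5, and *Gla* and *Psap* lost their call on that day and *Atp6v1h*, *Map1lc3a* and *Atg7* on day 7.

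For day 7 against day 5 in shRNA CON, TPM as deposited gave 13 members higher and 13 lower, and quantile normalization 14 higher. *Scarb2* (0.0071) and *Gabarap* (0.039) turned positive with TPM as deposited, and *Ctsd* (0.017), *Ctsl* (0.064), *Sqstm1* (0.047), *Gabarap* (0.19) and *Gabarapl1* (0.12) with quantile normalization. For the difference of effects, TPM as deposited gave 5700 genes higher and 2053 lower and 25 members higher, and quantile normalization 27 members higher. Quantile normalization turned *Ctsa* (0.26), *Ctsl* (0.30), *Atp6v0d1* (0.15), *Bnip3l* (0.21), *Gabarap* (0.054) and the astrocyte marker *Gfap* (0.0053) positive, and on day 5 *Psap* negative (-0.024). The cause of these changes was not tested. A planned comparison of protein sequences was not run. The day 7 call of *Map1lc3a* was lost without any 1 of 4 of the 8 libraries, with adjusted p of 0.0664 to 0.085. TPM without read counts limits what can be said of low genes such as *Gm20754*.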
